A study of Mus musculus with 24 samples.

Results

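The 1699 gained sites described here are stretches of open chromatin that were called in all 4 libraries of mouse embryonic stem cells with a Chd8 hairpin and in neither of the 2 libraries with the shluci hairpin. They were chosen by the peak lists of these same 6 libraries. A peak of the library Chd8 shRNA1 replicate 1 was taken when it overlapped, by 1 bp or more, a peak in each of the other 3 Chd8 shRNA lists and none in either shluci list. This selected 1699 of 160654 peaks, or 1.06% of all peaks of that library. The difference between Chd8 shRNA and shluci libraries is therefore a description here and was not tested.

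The study measured chromatin accessibility by ATAC-seq, in which a transposase cuts and tags open DNA, in 24 libraries that form 12 groups of 2. All cells were of the mouse embryonic stem cell line E14 and carried the CTCF AID genotype, in which CTCF has a degron that lets the auxin IAA trigger its destruction. The Chd8 set and the Chd4 set each held shluci, shRNA1 and shRNA2 libraries without IAA. In the CTCF lines, a control line was assayed without and with 12 hours of IAA, and lines overexpressing wild-type CTCF or a mutated CTCF were assayed with 12 hours of IAA. A further set, labelled as a serum condition, held cells without and with 12 hours of IAA, although the growth protocol given for every library describes a serum-free medium with LIF and inhibitors. The labels do not say which change the mutated CTCF carries, whether the lines were single clones, or whether replicates came from separate cultures, so the p-values below measure the spread between these libraries, which may be technical. A peak list holds no measure of CHD8 or CHD4 RNA or protein, so the knockdown itself could not be checked. Shluci is the hairpin of the reference libraries, as the labels spell it.

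CHD8 is a chromodomain helicase that uses ATP to move nucleosomes, and it is known as a partner of CTCF, as a regulator of Wnt and p53 target genes and as a gene linked to autism. CHD4 is the related helicase of the NuRD complex, which also holds histone deacetylases. CTCF binds a long DNA motif and stops cohesin at loop anchors, and its bound sites are accessible in ATAC-seq.

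Of 10 promoters of mouse embryonic stem cell genes, 5 had a peak summit within 500 bp of a start in all 6 Chd8 set lists, namely Nanog, Esrrb, Zfp42, Tfcp2l1 and Dppa5a. Pou5f1 and Klf4 had none within that distance in any of the 6 lists. Of 15 promoters of genes that mark other cell types, 3 had a summit in all 6 lists and 3 in none of them, and of 3 fibroblast genes 1 had a summit in all 6 and 1 in none.

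Sequences of the sites that stand for each pattern below are printed on the plus strand of GRCm38 (mm10), from RefSeq. Capitals mark a match to the CTCF consensus or to one of the short words searched, a TEAD word included in that of Prss55. The first group holds the gained sites with the CTCF consensus of highest mean rank, to show what the consensus looks like in a gained site. As a class such sites were called less often with IAA than without, but those at Trp73, Prss55 and Gm16183 were called in all 8 CTCF line libraries and so do not show that difference in the control line. Each printed window reaches from the peak to the consensus. It lay in an intron of Trp73, a gene of the p53 family (chr4:154105331-154105473), in an intron of Faxc (chr4:21957777-21957925), downstream of Prss55, a serine protease gene (chr14:64070931-64071066), and in a coding exon of the calcium channel gene Cacna1a, whose nearest start is that of the antisense gene Gm16183 (chr8:84639485-84639560).
Trp73: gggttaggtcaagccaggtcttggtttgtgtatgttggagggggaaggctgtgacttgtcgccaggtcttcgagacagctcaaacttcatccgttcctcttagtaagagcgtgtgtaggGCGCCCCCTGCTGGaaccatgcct
Faxc: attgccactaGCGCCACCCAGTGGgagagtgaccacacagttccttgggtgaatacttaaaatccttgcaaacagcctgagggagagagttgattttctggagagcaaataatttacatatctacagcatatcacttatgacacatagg
Prss55: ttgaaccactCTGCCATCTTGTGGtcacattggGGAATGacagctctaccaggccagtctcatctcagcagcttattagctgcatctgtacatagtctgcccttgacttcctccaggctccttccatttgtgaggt
Gm16183: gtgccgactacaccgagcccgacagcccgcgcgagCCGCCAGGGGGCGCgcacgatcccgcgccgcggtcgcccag

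The Trp73 window matched the consensus with 0 mismatches and the other 3 with 1. The consensus lay 86, 59, 74 and 31 bp from the summit in the order printed, and in the first 3 it lay outside the peak itself.

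The second group holds the site with the highest mean rank of all, in an intergenic stretch with the pseudogene Gm48339 nearest (chr14:20048036-20048203), and the site of Gpc5, which encodes a glypican, a cell-surface heparan sulfate proteoglycan (chr14:115092811-115092887). Capitals in the first mark the SOX word.
Gm48339: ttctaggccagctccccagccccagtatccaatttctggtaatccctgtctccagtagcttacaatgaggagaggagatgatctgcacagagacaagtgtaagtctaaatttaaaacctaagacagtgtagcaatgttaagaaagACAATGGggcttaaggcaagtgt
Gpc5: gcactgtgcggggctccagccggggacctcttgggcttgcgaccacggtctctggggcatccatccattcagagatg

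The third group holds 2 sites that had no peak in any library outside the Chd8 set, in introns of Mbnl2, a splicing regulator (chr14:120302997-120303097, with a GATA word), and of Kat8, a histone acetyltransferase (chr7:127917431-127917564).
Mbnl2: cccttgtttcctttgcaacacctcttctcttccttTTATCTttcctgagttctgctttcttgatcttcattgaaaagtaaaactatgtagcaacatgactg
Kat8: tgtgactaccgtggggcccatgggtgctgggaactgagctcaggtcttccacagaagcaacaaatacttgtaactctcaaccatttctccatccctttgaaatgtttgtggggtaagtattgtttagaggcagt

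The fourth group holds 2 sites that met the same rule in the Chd4 set, near Tle4, a Groucho family co-repressor (chr19:14426797-14426847), and in an intron of Dcdc2a with the pseudogene Gm11348 nearest (chr13:25110403-25110510).
Tle4: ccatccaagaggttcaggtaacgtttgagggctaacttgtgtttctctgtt
Gm11348: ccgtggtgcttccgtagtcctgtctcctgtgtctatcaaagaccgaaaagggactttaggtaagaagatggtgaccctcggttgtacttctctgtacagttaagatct

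The fifth group holds 2 sites called in all 18 libraries outside the Chd8 set, with Nbea, which encodes the vesicle traffic protein neurobeachin, nearest (chr3:56303028-56303149) and with the pseudogene Gm15022 nearest (chrX:135243945-135244062).
Nbea: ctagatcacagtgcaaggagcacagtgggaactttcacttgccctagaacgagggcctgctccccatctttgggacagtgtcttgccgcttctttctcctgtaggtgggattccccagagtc
Gm15022: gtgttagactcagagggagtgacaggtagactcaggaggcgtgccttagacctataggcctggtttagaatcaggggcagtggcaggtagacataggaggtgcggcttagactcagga

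The last group holds sites at genes of the Wnt and autism lists, the promoter of Nkd1, an inhibitor of Wnt signalling (chr8:88521240-88521335), and an intron of Shank3, a scaffold of the synapse (chr15:89532528-89532610, with a GATA word).
Nkd1: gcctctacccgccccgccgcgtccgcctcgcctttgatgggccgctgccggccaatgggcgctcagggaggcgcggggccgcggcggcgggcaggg
Shank3: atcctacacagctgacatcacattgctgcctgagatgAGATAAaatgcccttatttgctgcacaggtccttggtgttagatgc

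The gained sites were of about the typical strength of each list. The authors' fold enrichment at the summit, the signal over the local background of the same library, had a median of 4.54 over the gained sites in shRNA1 replicate 1, against 4.73 over all its peaks. In shRNA1 replicate 2 the medians were 4.65 and 4.72. In shRNA2 replicate 1 they were 5.35 and 4.95, and in shRNA2 replicate 2 they were 5.28 and 4.99. Peaks of shRNA1 replicate 1 that were called in all 6 Chd8 set lists, of which there were 46557, had a median fold of 7.04. The gained sites thus lay just below the median peak of the shRNA1 lists, just above that of the shRNA2 lists, and below the shared peaks.

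The authors' fold and −log10 p together imply the number of reads stacked at a summit. A whole number of reads matched the deposited −log10 p within 0.002 on that scale for at least 99.9% of 2000 peaks tested in every list. When the fold was set 5% off, at most 1.3% had such a match. The median gained site rested on 7 reads in shRNA1 replicate 1, 6 in shRNA1 replicate 2, 10 in shRNA2 replicate 1 and 11 in shRNA2 replicate 2. A count of 7 has an exact 95% Poisson interval of 2.81 to 14.4, which covers counting error alone. The lowest called peak held 4 reads in each shRNA1 list and 5 in each shRNA2 list. The 2 shluci lists had lowest peaks of 4 reads and medians of 7 and 8 reads over all their peaks. Over all peaks of the 4 shRNA lists the medians were 7, 7, 10 and 10 reads, so the gained sites stood about as far above the lowest called count as the typical peak. The highest gained site held 24, 39, 67 and 84 reads in the 4 lists.

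**Figure D1:**
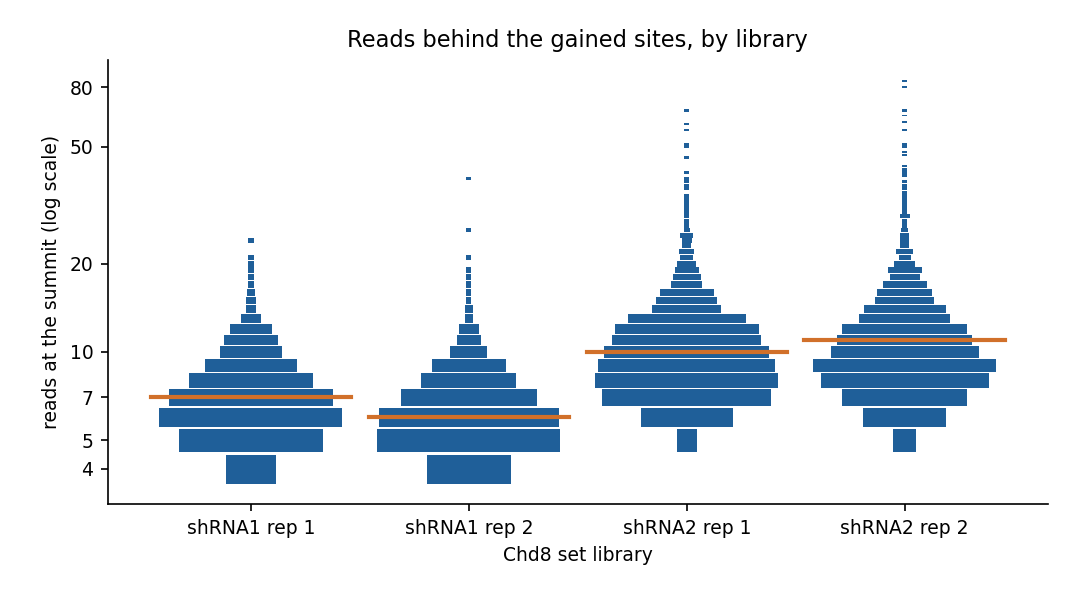
Reads at the summit (log scale) of the 1699 gained sites in each of the 4 Chd8 shRNA libraries. The width of each bar is the number of sites at that count, scaled to the commonest count of the library, with very narrow bars widened to stay visible, and orange lines are the medians of 7, 6, 10 and 11 reads.

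The rank of a site in one library said little about its rank in another. Over the 1699 gained sites, Spearman's rho of the within-list percentile of −log10 p lay between 0.0877 and 0.111 for 5 of the 6 pairs of Chd8 shRNA libraries. It was 0.331 for the 2 shRNA2 libraries. These are correlations across sites that share a library, given as a description. Summits of the same site lay a median of 23 bp apart between the 2 shRNA1 libraries and 31 to 36 bp apart in the other 5 pairs.

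The strongest sites were few. By the mean percentile over the 4 lists, the intergenic site with Gm48339 nearest came first, at 94.4, with 14, 14, 57 and 50 reads in the order shRNA1 replicates 1 and 2 and shRNA2 replicates 1 and 2. The second, in an intron of the tyrosine phosphatase gene Ptpn14, held 10, 15, 34 and 17 reads. The third, the Gpc5 site, lay 238 bp downstream of a start and held 10, 39, 67 and 84 reads. Both shRNA2 lists hold more reads per peak, with medians of 10 reads over all peaks against 7 in both shRNA1 lists. By fold, the Gm48339 site was higher in both shRNA2 libraries (25.4 and 22.1) than in the shRNA1 libraries (8.01 and 9.17), and the ranges overlapped for Ptpn14 and Gpc5. Of the 12 strongest sites, the other 9 had mean percentiles of 82.2 to 84.1 and held between 7 and 42 reads in any list. They included introns of Elovl5, a fatty acid elongase, C2cd2 and Dgki, a diacylglycerol kinase. A further 3 had pseudogenes nearest (Gm13981, Gm6272 and Gm5369), 2 had long non-coding RNA genes nearest (Gm45672 and AC102159.1), and 1 lay upstream of Pdcl3.

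Most gained sites lay beside a peak of the shluci lists. The nearest shluci peak was a median of 153 bp away, and it was within 200 bp for 1039 sites (61.2%) and within 1000 bp for 1331 sites (78.3%). Over all 51084 peaks of shRNA1 replicate 1 that neither shluci list called, the median was 801 bp, with 31.9% within 200 bp and 52.7% within 1000 bp. At the edge of the rule, 67 gained sites had a shluci peak within 10 bp and a median fold of 4.18 in shRNA1 replicate 1, while 96 peaks left out by a shluci overlap of at most 10 bp had a median fold of 4.48. The Gpc5 site was one whose shluci neighbour abutted it, at 0 bp. Whether a site and a shluci peak so close to it are parts of a single wider open region was not tested in the Chd8 set. By contrast 368 sites (21.7%) had no shluci peak within 1000 bp.

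**Figure D2:**
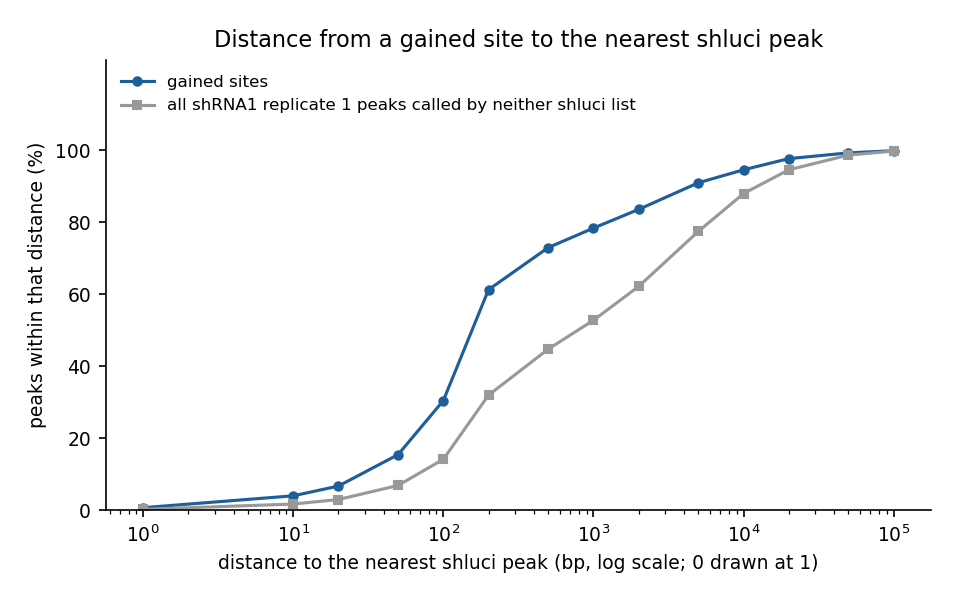
Share of peaks (y axis, in %) with a shluci peak within the distance on the x axis (bp, log scale). Blue circles are the 1699 gained sites and grey squares the 51084 shRNA1 replicate 1 peaks that neither shluci list called. At 200 bp the curves stand at 61.2% and 31.9%.

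The reference libraries weighed unequally in the rule. Of the 57955 shRNA1 replicate 1 peaks called by all 4 Chd8 shRNA lists, 80.3% were also called by both shluci lists, 12.6% by shluci replicate 2 alone and 4.09% by shluci replicate 1 alone. The remaining 2.93% are the gained sites. The shluci lists held 154566 and 166697 peaks. Without shluci replicate 2 in the rule, 9028 sites were gained, and without shluci replicate 1, 4069. Leaving out one of the shRNA libraries gave 2935 to 4641. A reverse pattern was met by 5161 lost sites, which are shluci replicate 1 peaks called by shluci replicate 2 and by no Chd8 shRNA list. It asks for a call in 2 lists and none in 4, and starts from another list. The counts of gained and lost sites are therefore not like for like.

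Seen from the CTCF lines, most gained sites were called in cells whose labels name no hairpin. The untreated control line called 77.7% of them in replicate 1 and 76.5% in replicate 2, against 69.4% and 68.2% of all shRNA1 replicate 1 peaks. With shRNA1 replicate 1 peaks split by −log10 p into 4 classes of about equal size, in the weakest class control line replicate 1 called 71.8% of the gained sites and 45.3% of all peaks. The shares were 75.1% and 58.6% in the next class and 81.2% and 76.5% in the third. In the strongest class, with 9.83% of the sites, the order turned, at 88.0% and 96.8%. A gained site had to be called in all 4 Chd8 shRNA lists, as only 36.1% of all peaks were. The rule itself therefore bears on these differences from all peaks. Both of these libraries called 1183 of the 1699 sites (69.6%), where the share over all peaks was 63.4%. All 8 libraries of the CTCF lines called 53.3% of the sites, close to the 52.5% of all peaks, and none of the 8 called 98 sites (5.77%), against 16.7% of all peaks. The control-line peak over a site was long, with a median of 609 bp where the median of all peaks in that list was 373 bp and that of the gained sites 89 bp. In replicate 1 of the untreated control line, 70.8% of the 1320 sites lay under a peak that also covered a shluci peak of the Chd8 set, as did 65.9% of all peaks of that list. The CTCF line libraries were also deeper at these places, with medians of 37 to 44 reads at the covering summit.

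Few gained sites were called in the Chd8 set alone. None of the 18 other libraries called 27 of them (1.59%), while 11.4% of all peaks had that property. All 18 called 11 (0.647%), against 6.38% of all peaks. The median gained site was called in 10 of the 18, as was the median peak. All peaks include those found in shRNA1 replicate 1 alone and those shared by every list, while the rule asks for a peak in 4 lists and none in 2, so the rule itself bears on the low shares at both ends. None of the 6 Chd4 set libraries called 25.8% of them, against 33.1% of all peaks.

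**Figure D3:**
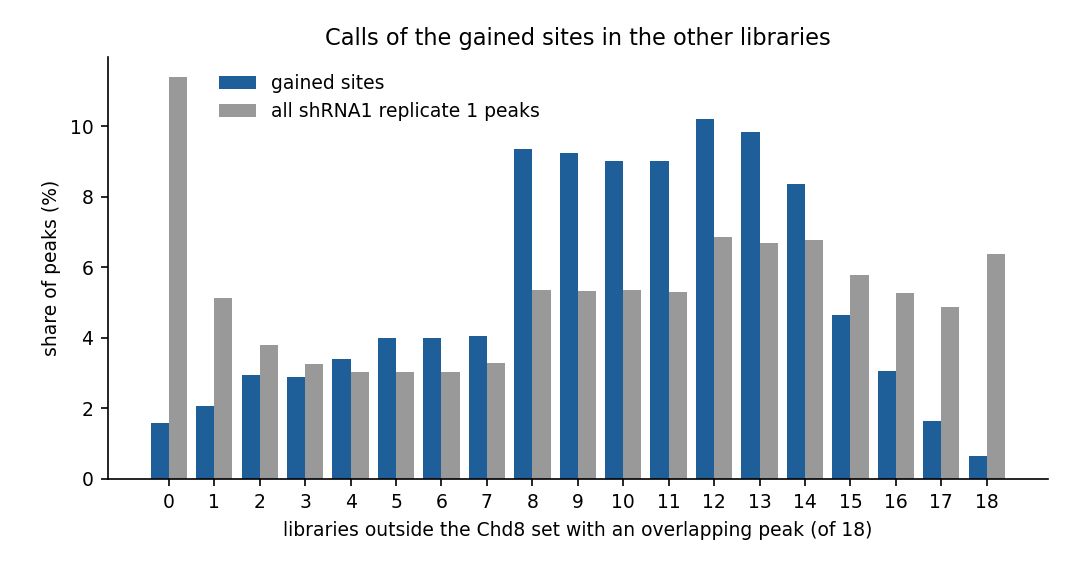
Share of peaks (y axis, in %) by the number of the 18 libraries outside the Chd8 set with an overlapping peak (x axis). Blue bars are the gained sites and grey bars all shRNA1 replicate 1 peaks; at 0 libraries the bars stand at 1.59% and 11.4%, and at 18 at 0.647% and 6.38%.

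Among the 27 sites called nowhere else, the site in an intron of Mbnl2 ranked first and held 6, 8, 23 and 18 reads in the 4 Chd8 shRNA libraries. The next, in an exon of the non-coding gene Gm14015, held 8, 9, 25 and 29 reads. Both were higher in the shRNA2 than in the shRNA1 libraries, by reads and by fold. The site in an intron of Kat8 held 11, 7, 9 and 9 reads. The sites at the small nucleolar RNA gene Gm25631, in an intron of Cracr2a, a calcium sensor, and upstream of Ccne1, which encodes cyclin E1, held 4 to 16 reads. Of the 6 named sites, those of Mbnl2, Gm14015 and Ccne1 had a shluci peak within 236 bp, and those of Gm25631, Kat8 and Cracr2a had one at 677, 1344 and 8617 bp.

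The 11 sites called in all 18 other libraries were the opposite case. The strongest of them had the pseudogene Gm5369 nearest, held 10, 7, 12 and 22 reads, and had no shluci peak within 21051 bp. The site with Gm15022 nearest held 7, 5, 11 and 10 reads, with the nearest shluci peak 131471 bp away. The site 119383 bp upstream of Nbea held 8, 4, 30 and 42 reads, and a shluci peak lay 98 bp from it. The sites with Gm11923, Mettl2 and Gm44193 nearest held 4 to 17 reads.

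In the Chd4 set, the same rule was met by 15 gained sites (0.883%, exact 95% interval 0.495% to 1.45%), and by 0.496% of all peaks. Applied to the Chd4 libraries alone, the rule gave 3196 sites, of which 13 (0.407%) overlapped a Chd8 gained site. These 13 were 0.765% of the Chd8 gained sites. The loss pattern, called by both Chd4 shluci and no Chd4 shRNA library, was met by 89 gained sites (5.24%), and by 4.36% of all peaks. Without Chd4 shluci replicate 1 in the rule the share of gained sites was 2.00% and that of all peaks 1.23%, and without shluci replicate 2 they were 1.82% and 1.08%. Without shRNA1 replicate 1 they were 1.65% and 0.709%, and without shRNA1 replicate 2, 1.47% and 0.856%. Without shRNA2 replicate 1 they were 1.29% and 0.827%, and without shRNA2 replicate 2, 1.18% and 0.884%. The gain pattern asks for a call in 4 lists and none in 2, and the loss pattern for a call in 2 and none in 4. The counts of both patterns are therefore not like for like, and each is set only against its share of all peaks.

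The sites that met the rule in both sets included the Gpc5 site, which was also called in all 8 CTCF line libraries and all 4 serum libraries. The site in an intron of Stk32b with Gm15732 nearest held 6, 5, 12 and 13 reads and was called in no CTCF line or serum library. The site in an intron of Dcdc2a with Gm11348 nearest held 5, 7, 17 and 9 reads and was called in 1 CTCF line library. The site with Tle4 nearest, 171229 bp from its start, held 6, 5, 12 and 14 reads and was called in all 8 CTCF line libraries. The site in an intron of Lrch1 with Esd nearest, a gene for an esterase, and that in an intron of Edaradd, an adaptor of the ectodysplasin receptor, were called in 7 of the 8.

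Chd4 shRNA libraries called fewer gained sites than the shluci libraries of the same set. With lists reduced to the same length, shluci replicates 1 and 2 called 26.8% and 31.8% of the sites. The shRNA1 replicates called 21.6% and 24.6%, and the shRNA2 replicates 20.9% and 22.3%. The groups did not overlap. The means were 29.3% ± 3.50 (SD, n = 2) and 22.4% ± 1.61 (SD, n = 4), a fall of 6.96 percentage points (exact two-sided permutation p = 0.0667, the smallest that 2 against 4 libraries allow; 0.400 adjusted by Benjamini-Hochberg over the 6 library tests). Within replicate number 1 the difference was -5.59 points, and within number 2, where the lists were shorter, -8.33. All shRNA1 replicate 1 peaks of the Chd8 set fell by 11.3 points in the same comparison. Divided by the share of all peaks in the same library, the share of the gained sites rose by 0.0826, so the direction turned. With sites chosen without shluci replicate 2 of the Chd8 set, the difference was -16.3 points, and without shRNA2 replicate 1 of that set, -4.34. Over gained sites with no shluci peak of the Chd8 set within 200 or 1000 bp it was -3.90 or -1.49.

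With IAA, the share of gained sites called in serum-free medium lay within the spread of replicates. The untreated control line called 76.4% and 74.2% and the line with IAA 77.8% and 72.9%. The ranges overlapped, and the difference was 0.0883 points (exact permutation p = 1.00, n = 2 against 2, where 0.333 is the smallest possible). Over all peaks it was -0.754 points. In the lists whose strongest peak had a −log10 q over 1000, which held both untreated libraries and 1 library with IAA, the difference was -2.35 points. The library with IAA whose strongest peak stayed under 500 had no untreated partner. Without control line replicate 2 with IAA the difference was 2.53 points, and without control line replicate 2 without IAA it was -1.03. In that comparison, with lists at deposited length, 26 sites (1.53%) were called in both IAA and neither untreated library, and 1.36% of all peaks were. The reverse held for 55 sites (3.24%) and for 3.10% of all peaks.

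In serum, more gained sites were called with IAA than without. Serum lists were reduced to 59786 peaks and those of the CTCF lines to 120137, and all peaks too were called less often in serum (40.0% to 43.7%) than in the CTCF lines (61.9% to 69.4%). The libraries without IAA called 40.0% and 37.6%, and those with IAA 43.4% and 45.4%, so the groups did not overlap. The means were 38.8% ± 1.71 (SD, n = 2) and 44.4% ± 1.46 (SD, n = 2), a rise of 5.59 points (exact permutation p = 0.333, the smallest possible, 0.667 adjusted). All peaks rose by 2.22 points. The lists at deposited length held 71773 and 82502 peaks with IAA and 69153 and 59786 without. In these longer lists, 84 sites (4.94%) were called in both IAA and neither untreated library, against 3.26% of all peaks. The reverse was true of 25 sites (1.47%), against 1.81% of all peaks. Over both media, with libraries permuted within each medium, the difference was 2.84 points (exact permutation p = 0.222, 0.667 adjusted, 4 against 4 libraries, where 0.0556 is the smallest possible), and 0.731 points over all peaks. With sites chosen without shluci replicate 2 of the Chd8 set it was 1.28 points.

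**Figure D4:**
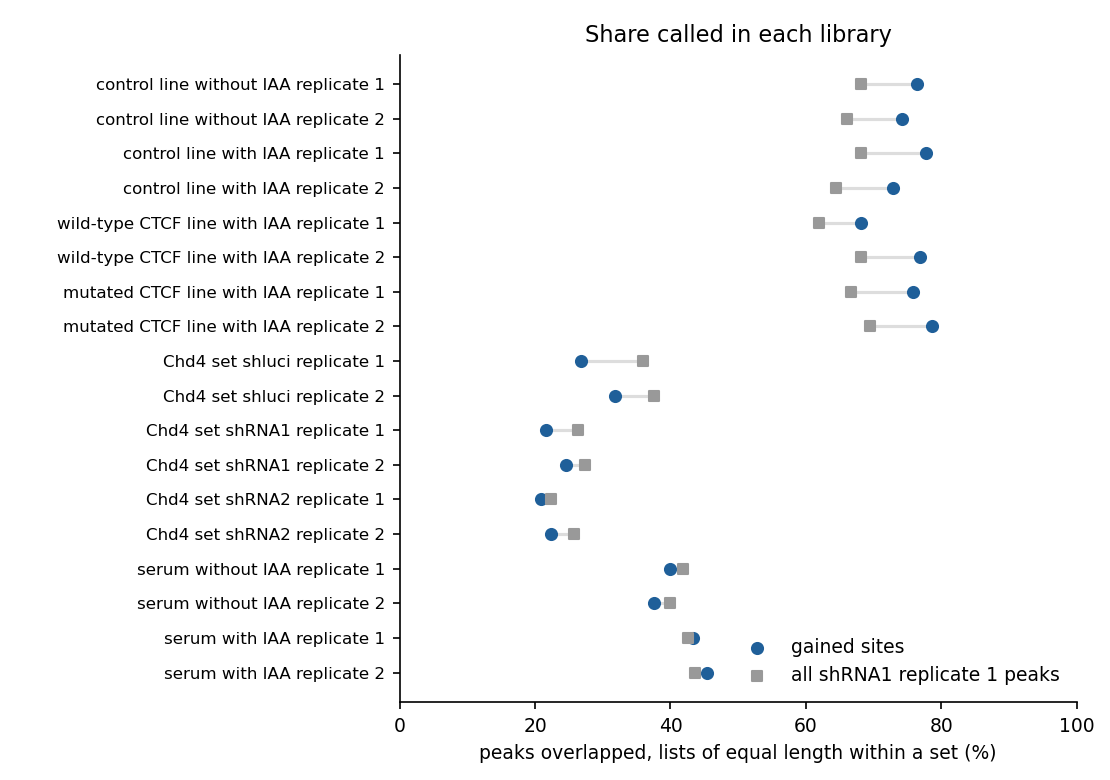
Share of the gained sites (blue circles) and of all shRNA1 replicate 1 peaks (grey squares) overlapped by a peak of each library outside the Chd8 set (x axis, in %), with lists cut to equal length within a set. Gained sites stand above all peaks in the 8 CTCF line libraries and below them in the 6 Chd4 set libraries.

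The lines overexpressing CTCF overlapped the control line. With IAA, the wild-type CTCF line called 68.2% and 76.8% of the gained sites and the mutated CTCF line 75.8% and 78.6%, where the control line with IAA, shared by both comparisons, called 77.8% and 72.9%. The wild-type line differed by -2.91 points and the mutated line by 1.82 points (exact permutation p = 0.667 for each, 0.800 adjusted, n = 2 against 2). Over all peaks the differences were -1.33 and 1.66 points. Without wild-type replicate 1 the wild-type difference was 1.38 points and without wild-type replicate 2 it was -7.21. Without control line replicate 2 with IAA the mutated line differed by -0.618 points, and without control line replicate 1 by 4.27. Between lists of like strongest peak, the wild-type line differed by -4.77 and -1.06 points and the mutated line by 2.83 and 0.824. With lists at deposited length, 34 sites (2.00%) were called in both wild-type libraries and neither control library with IAA, as were 2.00% of all peaks. The reverse held for 20 sites (1.18%) and 1.31% of all peaks. In the mutated line these counts were 41 sites (2.41%) against 2.22% of all peaks, and 12 sites (0.706%) against 0.728%. The members' shares were near the background in all 4 counts.

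Gained sites with the CTCF consensus were called less often with IAA than without, and those without it were not. Within 250 bp of the summit, 82 of the 1699 sites (4.83%, exact 95% interval 3.86% to 5.96%) held the 14 bp consensus with at most 1 mismatch, on either strand, against 6.46% of all peaks, 3.88% of the Chd4 gained sites and 5.58% of the Chd8 lost sites. Permuted forms of the consensus were found at 0.742% of the gained sites on average over 10 permutations. In the untreated control line 69.5% and 65.9% of these 82 sites were called. With IAA this was 45.1% and 35.4%. In serum the values were 47.6% in both untreated libraries and 22.0% and 26.8% with IAA. The groups did not overlap in either medium.

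The 1617 sites without the consensus went from 76.7% and 74.6% to 79.5% and 74.8% with IAA in the control line, and from 39.6% and 37.1% to 44.5% and 46.4% in serum. All peaks without the consensus went from 67.7% and 65.9% to 69.6% and 66% in the control line, and from 40.9% and 39.0% to 43.4% and 44.5% in serum. Shares of the sites with the consensus stood between both states in the overexpression lines, at 52.4% and 56.1% in the wild-type CTCF line and at 52.4% and 56.1% in the mutated CTCF line. All 10386 peaks with the consensus showed the same order, with 72.7% and 70.2% in the untreated control line, 47.1% and 43.5% with IAA, 59.1% and 63.7% in the wild-type line and 59.8% and 62.4% in the mutated line. In serum all such peaks went from 55.7% and 53.5% to 30.3% and 31.7%. The gained sites with the consensus thus showed the order that all peaks with it showed. These splits by consensus were made after values were seen and carry no test.

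**Figure D5:**
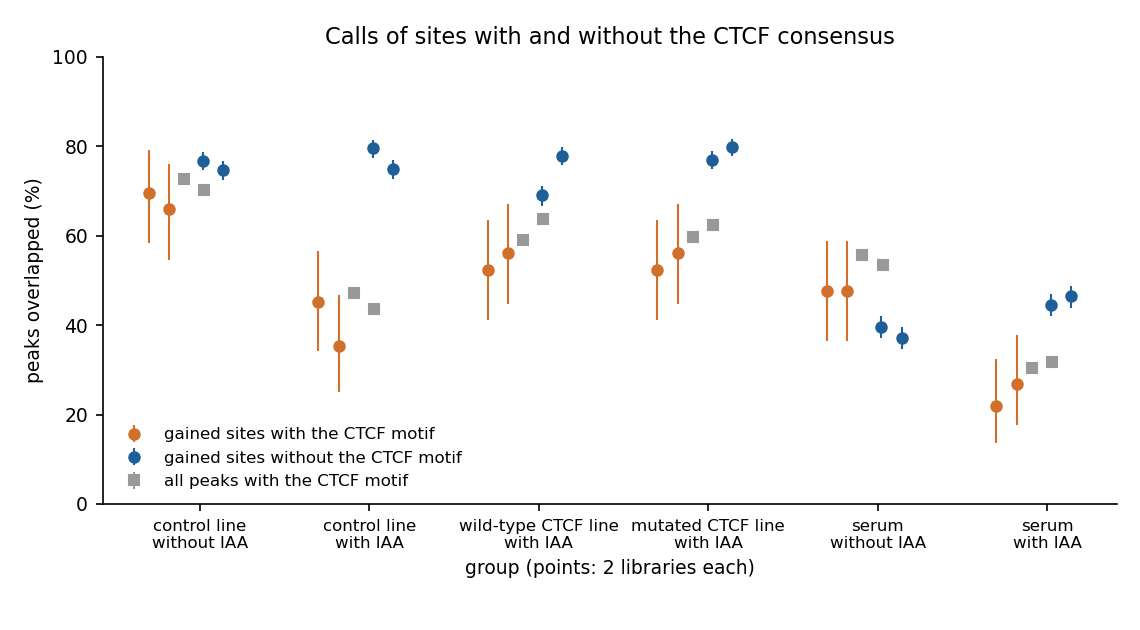
Share of peaks overlapped (y axis, in %) in the 12 libraries of the CTCF lines and the serum set, 2 points a group. Orange circles are the 82 gained sites with the CTCF consensus, blue circles the 1617 without it and grey squares all 10386 peaks with it; bars are exact 95% binomial intervals, which cover counting error alone. Orange points stand at 69.5% and 65.9% without IAA and at 45.1% and 35.4% with it in the control line.

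The 4 gained sites with the consensus that ranked highest were called in most CTCF line libraries. The sites named above at Gm25631 and Ccne1 also held it, with 1 mismatch at 223 and 93 bp from the summit, and were called in none of the 8. The site in Trp73 held 6, 10, 21 and 17 reads in the Chd8 shRNA libraries and was called in 8 of 8 CTCF line and 3 of 4 serum libraries. That in Faxc held 8, 7, 17 and 26 reads and was called in 6 of 8 and 3 of 4. The exon of Cacna1a held 14, 16, 13 and 13 reads, with 8 of 8 and 4 of 4, and the site near Prss55 held 7, 12, 12 and 15 reads, with 8 of 8 and 2 of 4. A shluci peak lay 21 to 240 bp from each.

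Gained sites were mostly intronic or intergenic. Introns held 46.1% and intergenic stretches 34.3%, against 41.0% and 33.5% of all peaks, by the GENCODE vM21 basic annotation. The summit lay within 500 bp of an annotated start, called a promoter here, at 213 sites (12.5%, exact 95% interval 11% to 14.2%), against 18.8% of all peaks. The share was 9.23% of the Chd4 gained sites, 8.25% of the Chd8 lost sites and 31.3% of the peaks called in all 6 lists. It was 16.3% of the sites with a shluci peak within 200 bp and 4.35% of the 368 sites with none within 1000 bp. With sites chosen without shluci replicate 2 it was 24.3%. In the same 4 classes of −log10 p, from weakest to strongest, the promoter share of the gained sites was 12.9%, 12.4%, 12.2% and 13.2%, and that of all peaks 10.6%, 12.9%, 17.0% and 34.6%. The share of the gained sites was thus level over strength, above that of all peaks in the weakest class, near it in the next and below it in the stronger ones. The median distance to the nearest start was 10339 bp, against 9249 bp for all peaks and 19668 bp for the Chd4 gained sites. Of the promoter sites, 95 (44.6%) were rich in CpG, with over 50% GC and a ratio of observed to expected CpG over 0.6.

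Of the promoter sites, 172 belonged to protein-coding genes. After Gpc5, the highest by rank were at Dbr1, which encodes the enzyme that opens intron lariats, with 12, 6, 32 and 34 reads, and at Kcne3, a potassium channel subunit, with 10, 6, 14 and 18 reads. The site at Gm14327 held 12, 7, 22 and 9 reads. The site at Mat2a, which encodes the enzyme that makes S-adenosylmethionine, held 21, 13, 18 and 23 reads, and that at Iqgap3, a scaffold protein, 12, 7, 15 and 17. A shluci peak lay within 140 bp of each of these 5, and all 5 were called in 7 or 8 of the 8 CTCF line libraries.

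Some genes of the Wnt, p53 and autism lists, chosen for what CHD8 is known for, had a gained site nearest. Of all genes, 801 of 21911 protein-coding genes (3.66%) were the nearest gene of a gained site, or 4.69% of the 17078 that were nearest to any peak. In the Wnt pathway list 2 of 17 genes were (11.8%), in the p53 target list 1 of 16 (6.25%) and in the autism list 3 of 21 (14.3%), with 19 of the 21 nearest to any peak. These shares rest on 1 to 3 genes each, take no account of how many peaks a gene is nearest to, and were not tested. The developmental lists with a site, given below, stood at 5.56% to 10.0%. The Wnt genes were Nkd1, whose site lay 26 bp upstream of its start and held 8, 4, 9 and 12 reads, and Fzd7, a Wnt receptor, whose site lay 953 bp upstream and held 13, 10, 10 and 16 reads. The p53 target was Phlda3, an inhibitor of Akt signalling, with 7, 10, 7 and 14 reads at 5346 bp downstream. Both Wnt sites had a shluci peak within 153 bp, and the Phlda3 site had one at 141 bp.

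The autism genes were Cntnap2, a neurexin family protein, with 3 sites, Foxp1, a forkhead transcription factor, with 2, and Shank3 with 1. The Shank3 site held 8, 5, 17 and 11 reads and was called in 3 of 8 CTCF line libraries. The sites of Cntnap2 held 6 to 23 reads and those of Foxp1 5 to 17 reads in any library. All 6 were in introns or, for 1 of Cntnap2, in an intergenic stretch. No site had a CHD remodeller gene nearest, of 9 genes in that list.

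Among developmental genes, Sall4 of 18 pluripotency genes had 2 sites, upstream of its start by 32022 and 13159 bp, with 6 to 12 reads. Dnmt3b, a DNA methyltransferase, was the one of 13 primed pluripotency genes, with 5, 6, 6 and 11 reads. Neurog2, a proneural transcription factor, was the one of 14 neural genes, and its site, in a UTR 1522 bp downstream of the start, was the strongest of the listed genes with 15, 10, 19 and 33 reads. Foxa2, a forkhead factor of endoderm, was the one of 14 endoderm and mesoderm genes and had 3 sites with 5 to 17 reads. Zfp352, a zinc finger gene, was the one of 10 in the list of genes of the 2-cell-like state, of which 3 were nearest to any peak. None of 10 trophoblast and 12 stress genes had a site. The shares were 5.56% of the pluripotency, 7.69% of the primed, 7.14% of the neural and 7.14% of the endoderm and mesoderm list. The 2-cell-like list stood at 10.0%, and all protein-coding genes at 3.66%. Each of these list shares rests on 1 gene and was not tested. The Neurog2 site was called in 16 of the 18 other libraries and the Dnmt3b site in 3.

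The sites were spread over the genome, with 1604 genes nearest to at least 1. Of these, 1517 had 1 site, 80 had 2, 6 had 3, and Tmem64 had 4, out of 28 peaks nearest to it. Neighbouring sites lay a median of 776412 bp apart, and 46 pairs lay within 10000 bp. The share of sites on a chromosome divided by that of all peaks ranged from 0.855 on chromosome 18 to 1.16 on chromosome 10, leaving out chromosome Y, which had no site.

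Median GC around the summits was near that of all peaks, while CpG-rich windows were fewer. Median GC over 301 bp was 49.5%, against 50.2% of all peaks, 47.8% of Chd4 gained and 48.5% of Chd8 lost sites. Bases masked as repeats made up 13.8% on average, against 16.5% of all peaks and 28.2% of the Chd4 gained sites. Windows rich in CpG were 8.89% of the gained sites and 14.5% of all peaks. The gained sites thus held fewer CpG-rich windows than all peaks and fewer masked bases than the Chd4 gained sites.

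Of the 17 words searched within 150 bp of the summit, on both strands, most were found at a like share of gained sites and all peaks. The GC box GGGCGGGG, read by SP and KLF factors, was at 2.77% of the gained sites and 5.66% of all peaks. The ETS word CCGGAAGT was at 0.589% and 1.09%, and the YY1 word AAGATGGCG at 0.353% and 0.913%. The octamer ATTTGCAT of POU factors was at 2.77% and 2.24%, and at 7.13% of the Chd4 gained sites. The NFY word CCAATCA was at 3.65%, 4.67% and 11.1% in the same order. The AP-1 word TGANTCA was at 9.71% of the gained sites and 8.89% of all peaks, the GATA word AGATAA at 11.8% and 11.1%, and the TEAD word GGAATG at 17.0% and 17.3%. The Chd4 gained sites thus held more octamer and NFY words than the Chd8 gained sites.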

How the data were processed

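Open chromatin was profiled by ATAC-seq in 24 libraries. Per the submitters' processing notes, the authors used Trim Galore, Bowtie2, MACS2 and deepTools with the genome build mm10; versions are not given in the sources used here. The deposited peak lists, 1 per library, give each peak's fold enrichment (a ratio), its −log10 p and −log10 q, and its summit offset, as the authors' peak caller wrote them. The lowest −log10 q in a list was 1.30 to 1.31.

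Peaks were intersected at a minimum of 1 bp. For the library tests and the splits by consensus, lists were reduced to the strongest peaks by −log10 p, to the length of the shortest list of the set. Outside the alternatives, other calls and counts of sites used the deposited lists. Lists of the Chd8 set held 135410 to 166697 peaks and those of the Chd4 set 80619 to 141742, while the CTCF lines had 120137 to 155087 and the serum libraries 59786 to 82502. Total read depth is not given in the lists. Reads at a summit are the whole number that, with a background given by the fold (1 added to both terms), gives the deposited −log10 p as a Poisson tail; this form and a lowest background per list were inferred from the values.

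Shares of sites called were compared over libraries by exact two-sided permutation with Benjamini-Hochberg adjustment over 6 tests. Scripts used Python 3.11.15, numpy 2.4.6, pandas 2.3.3, scipy 1.17.1 and matplotlib 3.10.9 and were tested on simulated data. Genes are from GENCODE vM21 basic and sequences from the RefSeq GRCm38 genome. Named sites were the 12 of highest mean percentile of −log10 p over the 4 Chd8 shRNA lists, the 6 highest among those gained in the Chd4 set, called nowhere else, called in all 18 other libraries or at protein-coding promoters, the 4 highest with the CTCF consensus, and those in promoters of listed genes, with none from chromosome 18. A further 16 sites nearest to a listed gene were named after their values were seen. The members and gene lists were chosen with earlier results of these data known. Replicate numbers were not used as pairs in the main tests. In the Chd4 set they went with list length, at 135583 to 141742 peaks for number 1 and 80619 to 93091 for number 2. Alternatives changed the overlap, the list lengths, the −log10 q minimum, the library that gives the sites, the promoter and consensus windows, and left out each library in turn.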

Additional observations from a re-analysis of the deposited data

How the results depend on the processing

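Leaving 1 library out removes a condition of the rule, and gave 2935 to 9028 gained sites in place of 1699. The count was 1683 at 50% overlap, 1753 with reduced Chd8 lists and 1136 at a −log10 q of at least 3. With shRNA2 replicate 1 peaks as sites it was 1394. It was 660 or 368 where no shluci peak was allowed within 200 or 1000 bp, 2 settings chosen after seeing the data. The promoter share ranged from 11.7% to 24.3% leaving out libraries and was 18.4% for summits within 1000 bp of a start, 6.67% at 200 bp from shluci peaks and 4.35% at 1000 bp. The CTCF consensus share ranged from 3.99% to 6.46% leaving out libraries and was 5.99% at a −log10 q of at least 3, 5.98% at 1000 bp from shluci peaks, 1.00% with no mismatch and 0.471% within 50 bp of the summit. The share that met the rule in the Chd4 set ranged from 0.609% to 2.00% leaving out libraries.

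Of 127 alternatives of the 6 library tests, 107 kept the direction, 20 turned it and 0 had an exact permutation p at or under 0.05. The causes were not tested. The Chd4 difference ranged from -16.3 to -4.34 points leaving out libraries, was -3.90 and -1.49 at 200 and 1000 bp from shluci peaks, and turned to 0.0826 as a ratio to all peaks. The serum-free IAA difference ranged from -2.35 to 2.53 leaving out libraries. It turned to -0.178 at 50% overlap, -0.713 with reduced Chd8 lists, -0.748 at a −log10 q of at least 3, -1.40 with shRNA2 replicate 1 peaks as sites, -0.833 and -2.04 at 200 and 1000 bp from shluci peaks, -1.53 with lists at deposited length and -1.55 as a mean percentile. The wild-type line ranged from -7.21 to 1.38 leaving out libraries and turned to 0.136 at 1000 bp, 0.147 at deposited length and 0.950 as a mean percentile. The mutated line ranged from -0.618 to 4.27 leaving out libraries and turned to -0.000624 as a ratio. Leaving out libraries, serum ranged from 3.83 to 6.80 and both media from 1.28 to 4.06. Under the other settings in points, serum lay between 3.65 at a −log10 q of at least 3 and 9.39 at deposited length, and both media between 1.45 and 3.93. As a ratio to all peaks, both media differed by 0.0474 (exact permutation p = 0.0556, the smallest possible; 0.0556 to 0.500 over its alternatives).

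With the replicate number as a block the differences are the same by construction, with exact permutation p of 0.111 for Chd4 (-6.96 points), 1.00 for serum-free IAA (0.0883), 0.500 for serum (5.59), 0.250 for both media (2.84) and 1.00 for the wild-type (-2.91) and mutated (1.82) lines. Same-numbered libraries deviated together with correlations of 0.0216 to 0.0325 in the Chd4 set, 0.0405 in the control line, -0.00466 in serum, -0.109 between control and wild-type lines and -0.0602 between control and mutated lines. Crossing the numbers of the wild-type comparison, chosen after seeing the data, gave p = 0.500 by exact permutation.

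Sites with medians of 6 to 11 reads limit these results. The smallest p is 0.333 for 2 libraries against 2, 0.0667 in the Chd4 set and 0.0556 over both media. Outlying libraries were not tested in groups of 2.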
